A study of Mus musculus with 2 samples.

Results

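Mir28a, Mir151 and Mir708 are 3 related microRNA (miRNA) genes, each in an intron of a gene of cell adhesion. They were taken as the rows whose gene identifiers map to Mir28 or Mir28a, Mir151 and Mir708, and all 3 were found among the 1973 miRNA gene rows of both tables. The short RNA of whole hearts was sequenced from healthy mouse embryos of strain B6NCrl at 13.5 days, male and female embryos pooled, with no mutation or treatment named. There are 2 libraries, labelled as biological replicates from separate biosamples under 1 donor record, so the design holds 1 group and no comparison of conditions.

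A miRNA is cut from a hairpin in a longer transcript, and often that transcript is the intron of a protein-coding gene, its host. Of the mature strand, bases 2 to 8 (the seed) pair with sites in messenger RNAs, so miRNAs with the same seed can bind the same sites. The hosts act where cells hold on to the matrix or to each other. Ptk2 encodes focal adhesion kinase, a signalling enzyme of integrin contacts. Lpp encodes a LIM domain protein of the zyxin group found at focal adhesions and cell contacts and is well known from smooth muscle. Tenm4 (formerly Odz4) encodes a teneurin, a transmembrane protein of cell-cell recognition. Host messenger RNAs are not measured by short RNA sequencing, so levels are related to hosts here through position alone.

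The mature strands show what ties Mir28a and Mir708 together and how Mir28b, a relative by name, departs from them. RefSeq (GRCm38.p6) gave mature sequences for 2 of the 3 members, Mir28a and Mir708, and not for Mir151. The sequences below run 5′ to 3′, with the seed in capitals.
miR-28a-5p: aAGGAGCUcacagucuauugag
miR-708-5p: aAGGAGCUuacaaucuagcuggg
miR-28b: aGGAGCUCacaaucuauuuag
miR-28a-3p: cACUAGAUugugagcugcugga
miR-708-3p: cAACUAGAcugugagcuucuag

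The 5p strands of Mir28a and Mir708 had the identical seed, AGGAGCU, whose complement is AGCUCCU. Among 1738 mature entries of the RefSeq table, each was the other's only seed partner. Over 22 aligned bases, 16 were identical, with the first 8 bases in common. Counting from base 1 of miR-28a-5p, the differences were C9U, G13A, U18G, U19C, G20U and A21G. The 3p strands matched at 17 of 21 bases, but with a shift of 1 base, so that their seeds ACUAGAU and AACUAGA differed, and neither had a seed partner in the table. The strand of Mir28b matched miR-28a-5p at 19 of 21 bases (G13A and G20U), and it begins 1 base further in, which makes its seed GGAGCUC.

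The letters AGGAGCU occurred anywhere in 9 of the 1738 mature entries, and at bases 2 to 8 in miR-28a-5p and miR-708-5p alone. Of the other 7, miR-339-5p holds them near its 3′ end, from base 13, and its gene Mir339 reached 403 CPM. The other 4 of their genes that have a row held at most 1.10 CPM. The longest run that miR-28a-5p shared with a mature entry of another gene was 11 bases, with miR-28b. For miR-708-5p it was 9 bases, with miR-9-5p. Mir151 has no mature entry in the table, so neither the search for these letters nor that for shared runs covered it.

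Mir151 (ENSMUSG00000065612.1) lies on the minus strand of chromosome 15, 73254815 to 73254882 of mm10, inside Ptk2. Of the 15 annotated Ptk2 transcripts, 5 span it. It sits in intron 23 of 33 of the protein-coding one with the most exons, and that intron is 14556 bases long. The exon before it ends 2151 bases upstream, so Mir151 is the closest of the 3 to an exon. On the other strand the annotation has an antisense RNA, 1700085D07Rik. Mir28a (ENSMUSG00000065494.1) lies on the plus strand of chromosome 16, 24827855 to 24827940, in intron 8 of 12 of Lpp, spanned by 3 of 6 transcripts. That intron spans 82814 bases, and the nearest exon starts 17150 bases downstream. Mir708 (ENSMUSG00000076143.1) lies on the plus strand of chromosome 7, 96249424 to 96249532. It is in the first of 32 introns of Tenm4, which is 183862 bases long, and 7 of 12 transcripts span it. Its start is 78178 bases, or 10.6% of the transcript's span, from the start of that transcript, against 72.5% for Mir28a in Lpp and 77.2% for Mir151 in Ptk2.

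**Figure D1:**
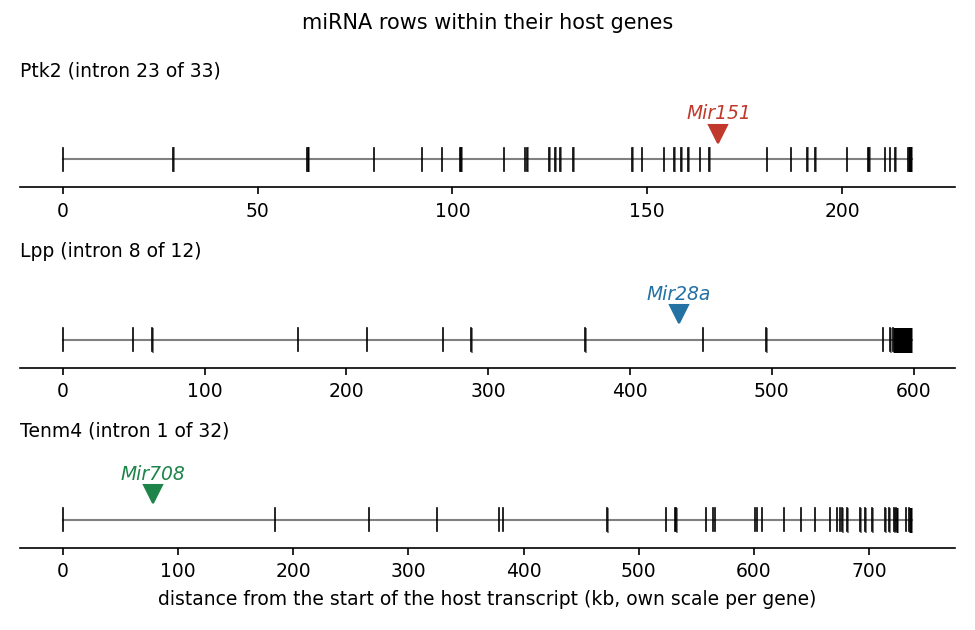
Position of each miRNA (triangle) in its host transcript, in kb from the transcript's start, with a vertical tick at the start of each exon and 1 scale per gene. Mir708 sits in the first intron of Tenm4, while Mir28a (72.5% of the span) and Mir151 (77.2%) sit in the later part of Lpp and Ptk2.

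Mir151 was the most abundant of the 3, followed by Mir28a and then Mir708, in both libraries. Counts are reads on the strand of the gene, which totalled 5569959 in replicate 1 and 6039005 in replicate 2, and CPM is counts per 1000000 of these. Mir151 had 30465 counts in replicate 1 and 34860 in replicate 2, or 5470 and 5772 CPM, a mean of 5621 ± 214 CPM (SD, n = 2). Mir28a had 8398 and 8478 counts, or 1508 and 1404 CPM, a mean of 1456 ± 73.4 CPM. Mir708 had 3760 and 3550 counts, or 675 and 588 CPM, a mean of 631 ± 61.7 CPM.

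These levels do not overlap between the genes in either library, and the order was the same in each. Mir151 held rank 29 of 1973 in both libraries, Mir28a ranks 68 and 69, and Mir708 ranks 96 and 100. Each read of this size class, under 30 nucleotides, covers a mature strand rather than a stretch of a long transcript, so levels were not divided by gene length. A row counts the whole hairpin gene, and the 5p and 3p strands cannot be told apart in it. In whole hearts, fewer cells that hold a miRNA and less of it per cell cannot be told apart either.

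Mir28b, which lies on chromosome 8 from 73016512 to 73016591 in no protein-coding gene of its strand, had 5 counts in replicate 1 and 1 in replicate 2. That is 0.898 CPM (exact Poisson 95% interval 0.291 to 2.09) and 0.166 CPM (0.00419 to 0.923). The counts of Mir28b are near what a count of 0 allows, 3 counts, so its level is barely detectable at this depth. Mir28c was not analysed here.

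**Figure D2:**
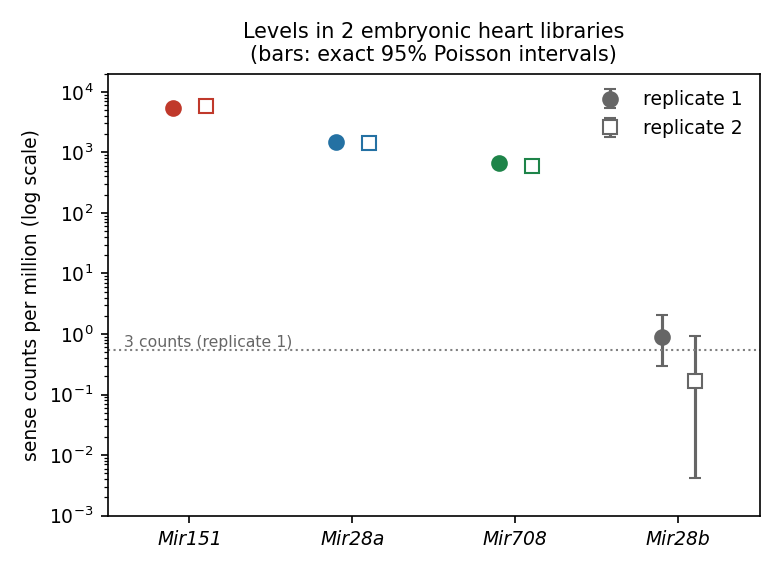
Sense CPM (log scale) of the 3 genes and of Mir28b, with replicate 1 as filled circles, replicate 2 as open squares and exact 95% Poisson intervals as bars. The 3 members sit between 588 and 5772 CPM with the libraries close together, and Mir28b sits around the dotted line of 3 counts.

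Between members the differences were several-fold in both libraries. Mir151 had 8.10 times the counts of Mir708 in replicate 1 (exact 95% interval 7.83 to 8.38) and 9.82 times in replicate 2 (9.49 to 10.2). The log2 ratio was 3.16 ± 0.196 (SD, n = 2), or 8.92-fold. Mir151 exceeded Mir28a by 3.63 times (3.54 to 3.72) and 4.11 times (4.02 to 4.21), a log2 ratio of 1.95 ± 0.128. Mir28a, the seed partner of Mir708, exceeded it by 2.23 times (2.15 to 2.32) and 2.39 times (2.30 to 2.48), a log2 ratio of 1.21 ± 0.0683.

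Each of these 3 log2 ratios exceeded its SD over the libraries. No test was made of them, since the smallest two-sided p of an exact permutation test (sign flips) over 2 libraries is 0.5. The ratios with Mir151 on top were higher in replicate 2, and their intervals did not overlap between libraries. For Mir28a over Mir708 the intervals did overlap. The ratios compare read counts and not molecules.

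Together the 3 genes took 0.765% of sense counts in replicate 1 (exact Clopper-Pearson 95% interval 0.758 to 0.773) and 0.776% in replicate 2 (0.769 to 0.783), or 0.771% ± 0.00791. On total counts the sum was thus almost equal in the libraries while the parts moved in opposite directions. This holds for that scaling only, and the sum was not worked out under another. Under TMM scaling the log2 ratio of replicate 1 over replicate 2 was -0.18 for Mir151, -0.00059 for Mir28a and 0.096 for Mir708. Mir151 made up 71.5% of the 3 genes' counts in replicate 1 and 74.3% in replicate 2. Mir28a made up 19.7% and 18.1%, and Mir708 8.82% and 7.57%. Mir151 alone thus held more counts than the seed partners Mir28a and Mir708 together.

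For each member, the 3 genes nearest in level were looked up. Likeness was measured as the distance in log2(CPM + 1) over the 2 libraries, which says only that the levels were close. For Mir151 these were Mir100 (6412 ± 236 CPM, distance 0.29), Mir127 of the imprinted Dlk1-Dio3 region (4807 ± 125 CPM, 0.33) and Mir93 of the cluster in Mcm7 (7108 ± 622 CPM, 0.48). Mir28a lay closest to Mir425 (1491 ± 95.9 CPM, 0.052), Mirlet7b (1351 ± 100.1 CPM, 0.16) and Mir101b in an intron of Rcl1 (1420 ± 143 CPM, 0.22). Mir708 lay closest to Mir320 (624 ± 30.6 CPM, 0.073), Mir15b in an intron of Smc4 (689 ± 48.4 CPM, 0.18) and Mir302b (625 ± 33.1 CPM, 0.22). On total counts the ranges of mean ± SD of Mir28a and of Mir708 overlapped those of all 3 of their neighbours, whereas that of Mir151 overlapped none of its own. As the neighbours were picked by these same levels, such overlap follows in part from the choice. The SDs depend on the scaling: under TMM that of Mir28a was 0.418 CPM, that of Mir151 499.7 CPM and that of Mir708 29.6 CPM. Mir28a then overlapped Mir101b alone, and Mir708 overlapped Mir320 and Mir302b. Under DESeq2 size factors, which were 1 for both libraries and so did not correct for depth, the overlaps were the same. The exception was that Mir151 also overlapped Mir93.

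**Figure D3:**
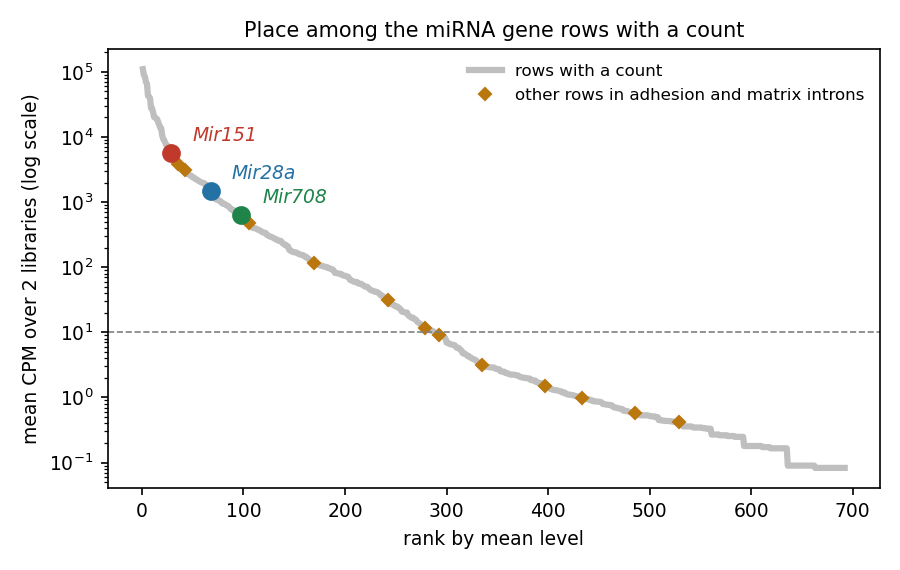
Mean CPM over 2 libraries (log scale) against rank for the miRNA gene rows with a count, with the 3 members as circles, other rows in introns of adhesion and matrix genes as diamonds, and 10 CPM as a dashed line. Mir151 lies at rank 29, Mir28a at 68 and Mir708 at 98 of the mean, all on the upper part of the curve.

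Between the libraries, none of the 3 genes differed by more than 0.20 on the log2 scale. Genes were compared by an exact binomial test on the counts of the libraries, adjusted over the 288 rows with a mean of 10 CPM or more. Calls needed both an adjusted p below 0.05 and a ratio of 1.5 or more. By that rule 17 rows (5.90%) were called, 14 of them higher in replicate 1, and none of the 3 members was among them. On the adjusted p alone 177 rows (61.5%) passed, and so did all 3 members, which reads as no more than the high background of this test at such depth. It compares the reads of these libraries, not conditions, and takes PCR copies as independent reads.

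Mir151 was lower in replicate 1, with a log2 ratio of replicate 1 over replicate 2 of -0.08 (exact binomial test, adjusted p = 2.27e-11). Mir28a was higher there, at 0.10 (adjusted p = 9.81e-06), and so was Mir708, at 0.20 (adjusted p = 1.11e-08). The median over the 288 rows was 0.10, so Mir28a lay at the median, Mir708 above it and Mir151 below it. Under TMM scaling, which brought the median of the rows to -0.0031, Mir28a stood at -0.00059 (adjusted p = 0.99), Mir151 at -0.18 and Mir708 at 0.096. DESeq2 size factors gave Mir28a -0.014, Mir151 -0.19 and Mir708 0.083. As these factors were 1 for both libraries, they compare raw counts with no correction for depth. The difference in Mir28a, though past the adjusted p on total counts, was thus lost and turned in sign with scaling. The signs of Mir151 and Mir708 held on total counts, under TMM and on the raw counts. By TMM 16 rows were called, 8 higher in each library, and again none was a member.

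**Figure D4:**
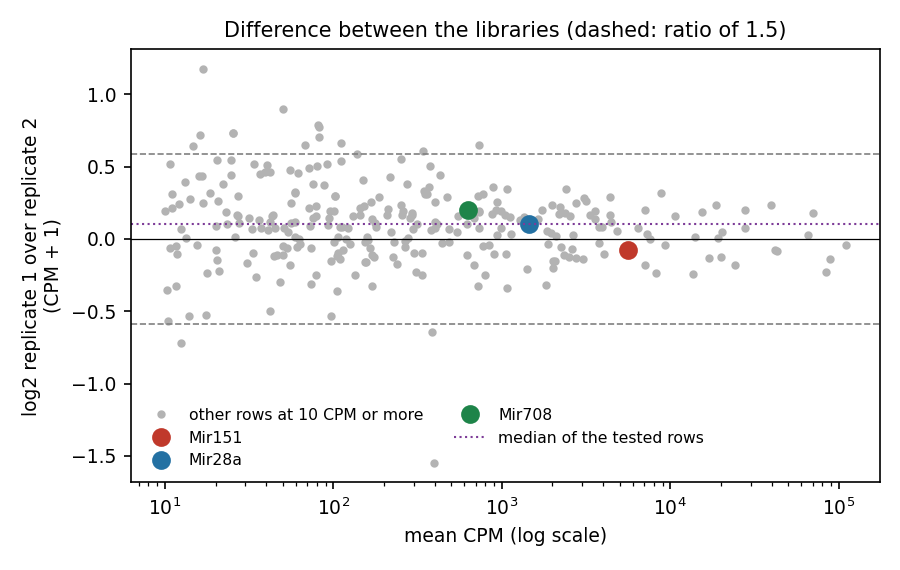
Log2 ratio of replicate 1 over replicate 2 (CPM + 1) against mean CPM (log scale) for 288 rows at 10 CPM or more, with dashed lines at a ratio of 1.5 and a dotted line at the median of 0.10. Mir708 (0.20) lies above the median, Mir28a (0.10) on it and Mir151 (-0.08) below it, all well inside the dashed lines.

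The hearts held the miRNAs of their main cell types. Cardiomyocyte markers (Mir208a, Mir208b, Mir499) summed to 50718 and 53387 CPM in replicates 1 and 2, the endothelial Mir126a to 74876 and 66025 CPM, and the smooth muscle pair Mir143 and Mir145a to 85136 and 93532 CPM. Nearly all of the smooth muscle sum was Mir143, with Mir145a at 868 and 931 CPM. Of markers of other tissues, hepatocyte Mir122 was at 201 and 591 CPM, the erythroid pair Mir451a and Mir144 at 1159 and 897 CPM, and leukocyte Mir223 at 441 and 310 CPM. The epithelial pair Mir200c and Mir203 was at 898 and 689 CPM, skeletal Mir206 at 79.5 and 116 CPM, and neural Mir137 at 83.1 and 52.7 CPM, with the 3 rows of Mir124 at 0 in both. These zeros do not show that Mir124 was absent. Multi-mapping reads made up 26.9% and 28.0% of the reads, and it is not known whether gene rows include them. Mir142 was not analysed here. The sums of the cardiomyocyte, smooth muscle, hepatocyte and skeletal markers were thus higher in replicate 2, as Mir151 was, although Mir208a alone was slightly higher in replicate 1 (7349 against 7178 CPM). The sums of the others were higher in replicate 1, as Mir28a and Mir708 were. On total counts so were 189 of the 288 tested rows (65.6%). The part of the cell types in the differences between the libraries was not tested.

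Other miRNAs hosted by adhesion and matrix genes spread far more widely than the 3 members. By a list of host symbols and prefixes (integrins, laminins, collagens, cadherins, teneurins, glypicans, Slit and receptor phosphatase genes among them), 24 rows lay in introns of such genes, the members included. Of these, 9 reached 10 CPM (37.5%), against 90 of 630 rows (14.3%) in introns of other protein-coding genes. Without the members, 6 of 21 (28.6%) reached it. No count was held by 9 of the 24 rows, against 344 of those 630. These are descriptions of rows, with no test, and the members' levels were known when the list was drawn up. The list is partial, as it leaves out hosts such as Cntn5, Ncan and Hspg2, and the shares depend on where it is drawn.

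The list covers introns alone. It leaves out Mir126a, which overlaps an exon of Egfl7, also a listed host, and stood far above Mir151 at 70450 ± 6259 CPM. Within the list Mir151 in Ptk2 was at the top, ahead of Mir149 at 3783 ± 155 CPM in Gpc1, which encodes a cell-surface heparan sulfate proteoglycan. Mir342 in Evl, a regulator of actin at adhesion sites, came next at 3067 ± 422 CPM, and Mir28a in Lpp held rank 4. Mir708 in Tenm4 held rank 5, followed by Mir455 at 471 ± 67.1 CPM in the collagen gene Col27a1. Mir190a in Tln2, which encodes the integrin activator talin 2, had 115 ± 4.28 CPM. The lowest were Mir218-2 in Slit3 (31.6 ± 2.29 CPM) and Mir218-1 in Slit2 (11.8 ± 0.667 CPM), both in genes of secreted guidance cues.

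The ranges of mean ± SD of Mir151, Mir28a and Mir708 did not overlap those of the next genes above or below them in this list, on total counts or under TMM or DESeq2 scaling. On total counts no neighbouring rows among the 9 overlapped, so this is not particular to the members. The 9 rows had a median of 631 CPM, which is Mir708 itself, and the 6 without the members had 293 CPM, against 193 CPM for the 90 rows in other introns and 197 CPM for all 288 rows. The list's median was 1044 CPM with exonic rows included and 293 CPM at a minimum of 1 CPM. The 3 members held 49.0% and 52.5% of the counts of the 24 rows in replicates 1 and 2 and 2.05% ± 0.0210 of the counts of all 654 rows in introns of protein-coding genes. Among those 654 rows Mir151 ranked 10, Mir28a 27 and Mir708 39. None of the 9 rows was called as different between the libraries, against 17 of all 288 rows (5.90%). With so few rows, this says nothing particular about them.

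**Figure D5:**
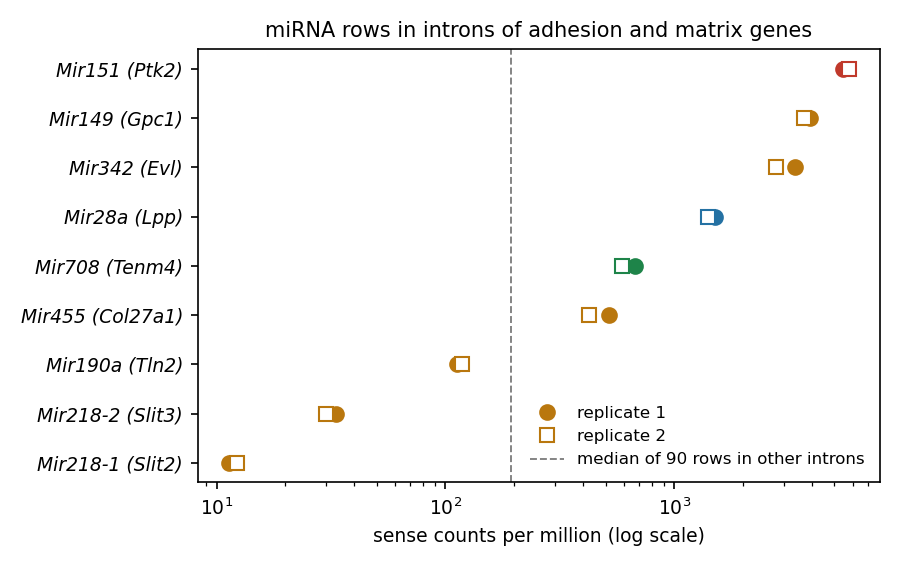
Sense CPM (log scale) of the 9 miRNA rows at 10 CPM or more in introns of adhesion and matrix genes, host in brackets, replicate 1 as filled circles and replicate 2 as open squares. Mir151 leads, Mir28a and Mir708 hold ranks 4 and 5, and the dashed line marks the median of 90 rows in other introns (193 CPM).

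Within 1 host, 2 miRNA rows stood far apart. Tenm4 has a second miRNA gene on the same strand and in the same intron, Mir6394 (chromosome 7, 96305667 to 96305765), 56134 bases downstream of Mir708. No read of either library was counted at Mir6394 (0 counts), where 3 counts would be 0.539 CPM in the one and 0.497 CPM in the other. Such rows are common, as 353 of the 654 rows in introns of protein-coding genes held no count. Mir708 was at least 1253-fold higher in replicate 1 and at least 1183-fold higher in replicate 2, against a floor of 3 counts per library. Ptk2 and Lpp hold no other annotated miRNA gene on their strand.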

How the data were processed

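Both libraries are microRNA-seq of whole embryonic heart. The authors aligned reads to mm10 and deposited raw read counts for each miRNA gene of GENCODE M4, per the notes that accompany each table. The sources used here do not give the aligner, counter or trimming. Replicate 1 held 12136246 reads and replicate 2 12282789. Unmapped reads made up 21.2% and 17.2%, multi-mapping reads 26.9% and 28.0%, and reads in no gene 3.60% and 2.92%. The rows of these classes were left out of totals and tests. Whether multi-mapping reads also enter gene rows is not stated and was not tested. The read totals are sums of gene rows and these classes, so they hold only if no read is in both. Rows of genes numbered as copies went both ways. Mir1a-1 held 25 and 22 counts in replicates 1 and 2 and Mir133a-2 held 0 in both, but Mir16-1 held 7477 and 7405. If gene rows leave multi-mapping reads out, CPM, ranks and shares cover uniquely mapped reads only.

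Sense counts were scaled to CPM. Symbols, hosts and coordinates came from GENCODE M21 (1894 of 1973 identifiers matched). Members and lists were chosen with earlier results of these data known. Named genes were the members and relatives by name, the 3 rows nearest to each in level, rows of the adhesion host list at 10 CPM, seed partners and cell type markers. Mir339 and Mir6394 were named after their values were seen. Libraries were compared by a two-sided exact conditional binomial test with Benjamini-Hochberg adjustment and a pseudocount of 1 CPM. It was tested on simulated data for this comparison: of 289 genes, 200 were changed 2-fold and 199 of those were called. The simulated counts were Poisson, as the test assumes. They held no PCR copies and no spread beyond counting error, so the simulation does not show how the test behaves with these. Poisson and Clopper-Pearson intervals cover counting error only. Alternatives were edgeR 4.0.16 TMM factors, DESeq2 1.42.0 size factors (R 4.3.3), both strands, totals without the most abundant gene, other minimums, ratio and pseudocount, exonic rows, and each library left out. The DESeq2 size factors came out as 1 for both libraries, so that setting made no correction for depth. SDs of the members and their neighbours under TMM and DESeq2 scaling were added after the data were seen. Computation used Python 3.11.15, numpy 2.4.6, pandas 2.3.3, scipy 1.17.1 and matplotlib 3.10.9.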

Additional observations from a re-analysis of the deposited data

Results flagged for a closer look

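Reads on the strand opposite to Mir708 were looked at because the comparisons use sense counts only. There were 20 in replicate 1 and 33 in replicate 2, above the 3 counts that a count of 0 allows. They made up 0.529% (exact 95% interval 0.323 to 0.816) and 0.921% (0.635 to 1.29) of the reads in that row, and the intervals overlap. GENCODE M21 lists no gene on that strand. Mir151, which has the antisense RNA 1700085D07Rik on its other strand, held 0 opposite counts in both libraries, which by the limit of 3 counts allows a share of up to 0.00985% and 0.00861% (exact 95% upper limits 0.0121% and 0.0106%). Mir28a also held 0, which allows up to 0.0357% and 0.0354% (exact 95% upper limits 0.0439% and 0.0435%). Among 274 rows at 10 CPM or more with no miRNA gene on the other strand, 253 held no opposite count and 11 held more than 3 over both libraries. Mir203 was the only one of them with more such counts than Mir708 (86 against 53).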

How the results depend on the processing

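With both strands counted, the log2 ratio of Mir151 over Mir28a could not move, since both genes held 0 opposite counts. That of Mir151 over Mir708 went from 3.16 to 3.15, less than 1 SD. It could move little, as opposite reads made up 0.529% and 0.921% of the Mir708 row. With 1 library the log2 ratio of Mir151 over Mir708 was 3.02 or 3.30, and over Mir28a 1.86 or 2.04. Totals without the most abundant gene gave levels of 1636 CPM for Mir28a, 6317 for Mir151 and 709 for Mir708, and a joint share of 0.866%. With both strands counted these were 1382 CPM for Mir28a, 5336 for Mir151 and 0.732% for the share. Both shifts follow from the changed total. The sign of Mir28a between the libraries turned under TMM (-0.00059) and DESeq2 (-0.014) scaling. Rows called as different numbered 39 at 1 CPM or more, 45 with no filter (more genes tested) and 2 at a ratio of 2, against 17. The median of the adhesion host list, 631 CPM, became 293 CPM at 1 CPM or more, 604 with both strands and 1044 with exonic rows included, and it ran from 588 to 597 with a library left out. No paired analysis was possible because there is 1 group. Mean levels of Mir28a, Mir151 and Mir708 moved by less than 1 SD under TMM and DESeq2 scaling. Both scalings keep the geometric mean of the library totals, so they could hardly move these means. The SD of Mir151 rose from 214 to 499.7 and 536 CPM. That of Mir28a fell from 73.4 to 0.418 and 9.75 CPM, and that of Mir708 from 61.7 to 29.6 and 25.6 CPM. Depth limits Mir28b (5 and 1 counts) and Mir6394 (0 counts).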
